A study of Mus musculus with 18 samples.

Results

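The genes described here are 9 genes of the tight junction, the apical polarity complex and the apical membrane: *Cldn1*, *Cldn2*, *Cldn10*, *Cldn19*, *Ocln*, *Tjp1*, *Cgn*, *Crb2* and *Ezr*. They were taken by name from the 47729 genes in the table, and all 9 were among the 18958 genes with enough counts to be tested. RNA was collected from the retinal pigment epithelium (RPE) of 9 *rd1* mice at postnatal day 40 (P40), with 1 library per eye. These mice, bought as FVB/N, carry a mutation in *Pde6b* that kills their rods early in life. The control eye received an adeno-associated virus (AAV) with Best1-GFP alone, and the Best1-Nrf2 eye of the same mouse received Best1-GFP together with a vector for the human Nrf2 cDNA. Both vectors use the human Best1 promoter, which is active in the RPE. The Best1-Nrf2 eyes were thus given a further vector, of another capsid than the Best1-GFP vector, so the added vector load and the Nrf2 it carries cannot be told apart. All eyes were injected, and per the labels no uninjected or wild-type eye was part of these data. The labels give all 18 samples as *rd1*, whereas the study's methods state fewer pairs for this comparison, and the labels were followed.

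The RPE is a monolayer whose cells are joined by tight junctions, and it forms the outer blood-retina barrier between the choroid and the photoreceptors. Claudins are the membrane proteins that set what passes between the cells: some seal the gap and others form pores for small ions. Occludin lies in the same strands, ZO-1 and cingulin tie the strands to the cytoskeleton, Crumbs proteins mark the apical domain above the junction, and ezrin anchors actin in the apical microvilli that reach the photoreceptors.

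Of the 9 genes, 2 passed the test between Best1-Nrf2 and control eyes, where 4.25% of all genes tested did (adjusted p under 0.05, edgeR quasi-likelihood test paired by mouse). *Cldn2*, which codes for a pore-forming claudin, fell (1.13% of all genes tested fell). *Cldn10*, which codes for another pore-forming claudin, rose (3.12% rose). Both moved the same way in 9 of 9 mice, as did 4.34% of all genes tested (3.12% higher and 1.22% lower). DESeq2 and limma voom also called these 2 of the 9, where they called 7.8% and 7.52% of all genes. The other 7 did not pass. The median log2 fold change of the 9 was -0.001, beside -0.025 over all genes tested. Since the genes were chosen with earlier results of these data known, nothing is read from how the share of 2 in 9 compares with these backgrounds.

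The regions just before the starts of the 2 genes that changed are shown because they hold the promoter sequence next to the sites where their transcripts begin. Each is the 250 bases before a RefSeq transcription start (GRCm38.p6), read 5′ to 3′ on the strand of the gene. Capitals mark a TATA box (TATAAA) and all other bases are in lower case. *Cldn10* has 2 annotated starts, whose transcripts begin with different first exons, and the counts are per gene, so its transcripts cannot be told apart.
Cldn2, chrX:139800558-139800807, plus strand: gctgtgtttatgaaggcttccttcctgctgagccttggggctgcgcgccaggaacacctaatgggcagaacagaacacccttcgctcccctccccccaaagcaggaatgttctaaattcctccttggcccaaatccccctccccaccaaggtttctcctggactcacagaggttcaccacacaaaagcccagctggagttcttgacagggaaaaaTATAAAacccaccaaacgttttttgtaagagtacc
Cldn10, upstream start, chr14:118787621-118787870, plus strand: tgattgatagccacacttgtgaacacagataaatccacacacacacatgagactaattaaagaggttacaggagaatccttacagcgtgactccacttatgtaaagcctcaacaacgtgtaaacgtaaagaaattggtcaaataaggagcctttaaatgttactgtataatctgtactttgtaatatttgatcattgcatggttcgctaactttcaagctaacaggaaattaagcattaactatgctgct
Cldn10, downstream start, chr14:118854700-118854949, plus strand: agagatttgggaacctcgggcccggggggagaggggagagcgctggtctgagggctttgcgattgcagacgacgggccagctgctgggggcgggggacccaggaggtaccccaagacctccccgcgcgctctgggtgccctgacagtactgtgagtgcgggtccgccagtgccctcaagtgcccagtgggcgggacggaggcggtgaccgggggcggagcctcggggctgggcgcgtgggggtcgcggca
The *Cldn2* window holds TATAAA at positions -35 to -30 from the start, and 12.4% of the 32851 RefSeq windows of this length hold these letters on either strand. GC content was 52.0% in the *Cldn2* window, 36.0% in the upstream *Cldn10* window and 72.4% in the downstream one, against a median of 52.4% over all windows. A further 3 motifs were searched on both strands in the 12 windows of the 9 genes. The core of the antioxidant response element, to which Nrf2 binds with small Maf proteins, was spelled TGACNNNGC and was in none of the 12 windows, while 10.2% of all windows held it. The AP-1 site TGANTCA, held by 6.75% of all windows, lay at -32 to -26 of *Ezr*. The motif TCANGTGA, bound by factors of the MITF family and held by 3.45% of all windows, began at -214 of 1 of the 2 *Ocln* windows. A TGANTCA match reads the same on both strands and was counted once, and it can overlap TGACNNNGC, which begins with the same letters. No match is shown to be a site in use, and a window without one says nothing of the factor.

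The targeted gene was checked first. *Nfe2l2*, the mouse gene for Nrf2, lay between 76.7 and 134 CPM (counts scaled to library size) in control eyes, with a median of 83.0 CPM, and between 275 and 704 CPM with Best1-Nrf2, with a median of 457 CPM. The groups did not overlap, and the log2 fold change was 2.29 (SE 0.21, adjusted p = 6.21e-05). With the rod and cone marker score as a covariate it was 1.83 (SE 0.45, adjusted p = 0.115) and lost its call. The vector carries human cDNA, and how its reads were counted against the mouse gene is not given in the sources used here. Libraries held 18956748 to 49598700 counts. The RPE label was checked against 19 RPE markers, none of which was at 0, and their summed level was 12400 to 67490 CPM in control eyes (median 41800 CPM) and 15290 to 69800 CPM with Best1-Nrf2 (median 22190 CPM). Their mean log2 level was lower with Best1-Nrf2 in 8 of 9 mice.

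Markers of other cells were present as well, and they differed between the groups. In edgeR, 8 of the 19 RPE markers fell and none rose, while DESeq2 and limma voom each called 11. The added calls were *Slc16a8* and *Kcnj13*, which were lower (edgeR log2 fold change -0.60 and -0.83, in 8 and 7 of 9 mice), and *Best1*, which was higher in 9 of 9 mice (edgeR log2 fold change 0.97, SE 0.25, adjusted p = 0.0555). With Best1-Nrf2, 4 of 9 rod markers and 10 of 11 cone markers fell, and 8 of 14 macrophage and microglia markers rose. Of the latter, *Csf1r* went the other way (log2 fold change -0.97, lower in 8 of 9 mice) and was called by DESeq2 but not by edgeR. The 10 markers of corneal and conjunctival epithelium, another epithelium with tight junctions, summed to 2211 to 50490 CPM in control eyes and 360.2 to 35590 CPM with Best1-Nrf2. None of these 10 passed the edgeR test or had an unadjusted p under 0.05, limma voom called none, and DESeq2 called *Krt12*. None was at 0 in all libraries, and their mean log2 level was lower in 6 of 9 mice. Of the remaining lists, 1 of 11 Müller glia markers fell (*Rlbp1*, also an RPE marker, while DESeq2 and limma voom also called *Vim* and *Crym*, with edgeR log2 fold changes of 0.90 and -3.52), 1 of 7 myelin markers rose, 1 of 11 fibroblast and sclera markers rose with all 11 estimates above 0 (median log2 fold change 0.58, mean level higher in 9 of 9 mice), and none of 14 inner retina, 11 endothelial, 7 ciliary and iris or 5 red blood cell markers passed in edgeR, DESeq2 or limma voom (1 inner retina marker and no other of these had an unadjusted p under 0.05). No marker tested in these lists was at 0 in all libraries. In bulk RNA, fewer cells of a type and less RNA per cell cannot be told apart, and the part of these markers in the results on junction genes was not tested beyond the covariate models given with them.

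*Cldn2* (ENSMUSG00000047230; GRCm38 chromosome X, 139800828 to 139811386, plus strand, 4 exons) codes for claudin-2, which forms a channel for small cations and water and is typical of leaky epithelia. In control eyes its level was between 16.2 and 239 CPM, with a median of 65.0 CPM. With Best1-Nrf2 it was between 6.30 and 59.4 CPM, with a median of 26.7 CPM. The groups overlapped, but every Best1-Nrf2 eye lay below the control median and below its own fellow eye. Mean levels were 90.1 ± 70.7 CPM and 26.6 ± 17.5 CPM (SD, n = 9 each). The log2 fold change was -1.74 (SE 0.28, 95% interval -2.34 to -1.13, adjusted p = 0.0029), or 3.34-fold lower (interval 2.19 to 5.07). The difference between the eyes of a mouse varied from -2.94 in mouse 6 to -0.08 in mouse 3 on the log2 scale, so in mouse 3 *Cldn2* was nearly level (40.4 and 38.1 CPM). The call held without any 1 mouse. It did not hold with a covariate for rod and cone markers (-2.20, adjusted p = 0.133), for RPE markers (-1.27, adjusted p = 0.223) or for macrophage and microglia markers (-2.56, adjusted p = 0.114), in models that called 0.19%, 1.19% and 0.232% of all genes.

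*Cldn10* (ENSMUSG00000022132; chromosome 14, 118787908 to 118875489, plus strand, 6 exons) codes for claudin-10, whose variants form channels for cations or for anions depending on the first exon used. In control eyes its level was between 0.809 and 23.2 CPM, with a median of 5.23 CPM. With Best1-Nrf2 it was between 10.9 and 66.4 CPM, with a median of 19.1 CPM. Every Best1-Nrf2 eye lay above the control median, while the control eyes of mice 5 and 7 (23.2 and 15.8 CPM) reached into the Best1-Nrf2 range. Mean levels were 7.36 ± 7.43 CPM and 25.1 ± 17.5 CPM (SD, n = 9 each). The log2 fold change was 2.09 (SE 0.52, 95% interval 0.96 to 3.23, adjusted p = 0.0422), or 4.27-fold higher (interval 1.95 to 9.35). The size of the rise varied widely between mice. In mouse 7 the eyes differed by 0.27 on the log2 scale (15.8 and 19.1 CPM), and in mouse 8 by 6.02 (0.969 and 66.4 CPM, from 17 and 2052 counts). The call was close to the threshold. It was lost without the pairing of eyes (1.77, adjusted p = 0.0919, in a model that called 3.91% of all genes) and without mouse 1, 2, 3, 4 or 9 (adjusted p = 0.0901, 0.0829, 0.0855, 0.0992 and 0.104), and with a covariate for rod and cone (1.51, adjusted p = 0.526), RPE (3.14, adjusted p = 0.189) or macrophage markers (0.94, adjusted p = 1.0). The direction was the same in all of these.

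The control eye of mouse 8 stood apart in several of these genes. It had the smallest library and the lowest *Cldn1*, *Cldn2*, *Cldn19* and *Rpe65* of the control eyes, and the highest *Tjp1* and *Nfe2l2*. Its mean log2 CPM over the RPE markers was 7.47, against 8.65 to 9.49 in the other control eyes, and over the corneal and conjunctival markers it was 10.2, against 7.00 to 9.66. Without mouse 8, the log2 fold change was -1.83 for *Cldn2* (adjusted p = 0.00474) and 1.74 for *Cldn10* (adjusted p = 0.0244).

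**Figure D1:**
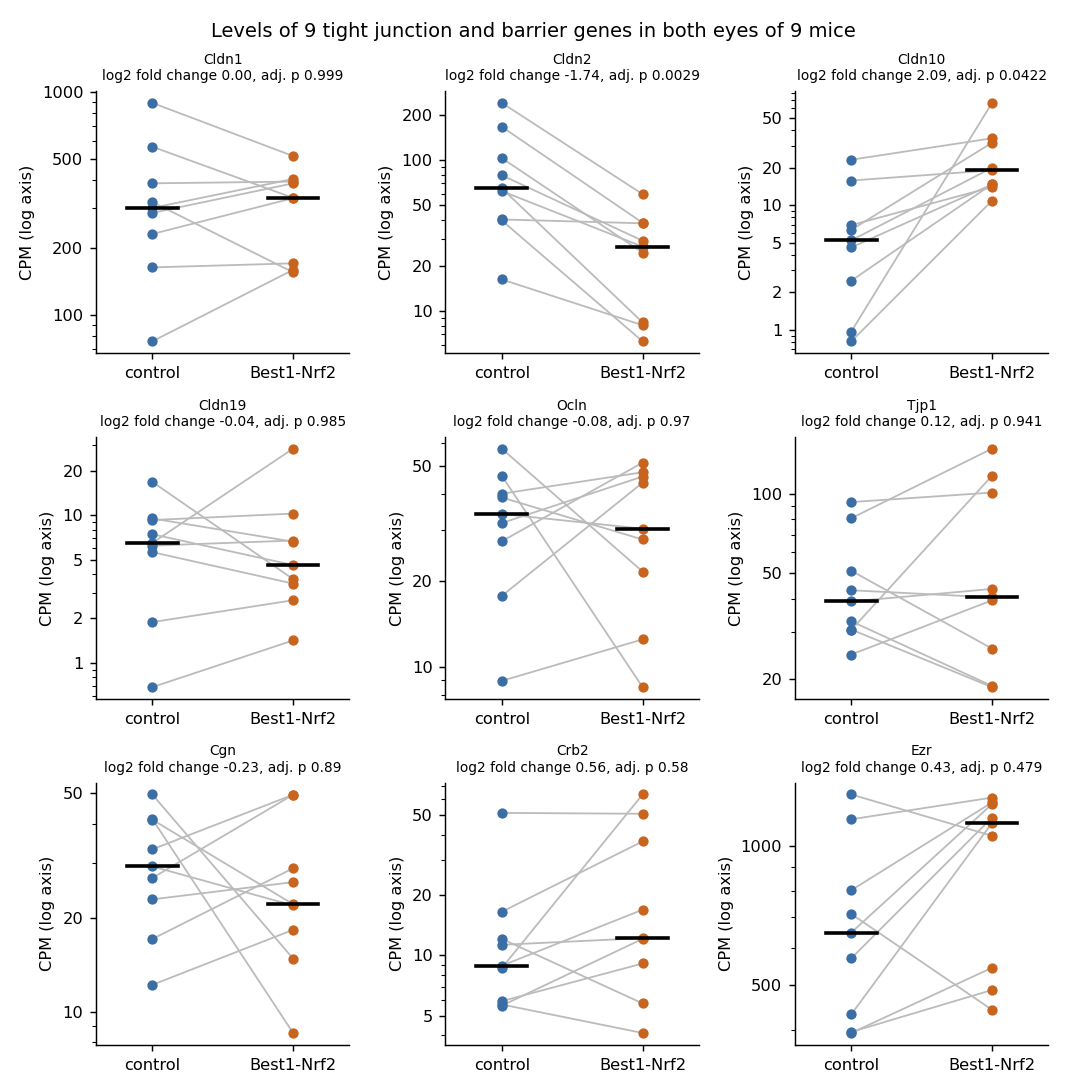
Level in CPM (log axes) of each of the 9 genes in the control eye (blue) and the Best1-Nrf2 eye (orange) of 9 mice, with a grey line joining the eyes of a mouse and a black bar at the group median. All 9 lines fall for *Cldn2* and all 9 rise for *Cldn10*, while the lines of the other genes cross.

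The other claudins of the set did not pass. *Cldn1* (ENSMUSG00000022512; chromosome 16, 26356642 to 26371841, minus strand, 4 exons) codes for a sealing claudin that is known from the barrier of the skin. It was 76.0 to 890 CPM in control eyes (median 301 CPM) and 155 to 514 CPM with Best1-Nrf2 (median 334 CPM). The Best1-Nrf2 values lay within the control range, and *Cldn1* was higher in 6 of 9 mice. Its log2 fold change was -0.001 (SE 0.24, 95% interval -0.53 to 0.53, adjusted p = 0.999), an interval that leaves room for a change of up to 1.44-fold either way. *Cldn19* (ENSMUSG00000066058; chromosome 4, 119255414 to 119262438, plus strand, 4 exons) codes for claudin-19, a main claudin of the human RPE whose loss affects the kidney and the eye. It was 0.684 to 16.9 CPM in control eyes (median 6.51 CPM) and 1.42 to 28.4 CPM with Best1-Nrf2 (median 4.61 CPM). Its groups overlapped throughout (log2 fold change -0.04, SE 0.38, 95% interval -0.88 to 0.80, adjusted p = 0.985). *Cldn19* overlaps an antisense gene over 90 exonic bases, and the counts are not known to use strand, so reads of the 2 cannot be told apart there.

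The make-up of the claudin transcripts differed between the groups. Levels were divided by exon length here, since genes are compared with each other. Among the 4 claudins of the set, the median share of *Cldn2* was 23.1% in control eyes (17.2% to 37.5%) and 8.27% with Best1-Nrf2 (2.24% to 19%). The share of *Cldn10* was 2.12% in control eyes (0.133% to 12.8%) and 11.9% with Best1-Nrf2 (3.44% to 41.8%). *Cldn1* made up most of the 4 in every eye, with medians of 68.6% and 78.7% and a higher share with Best1-Nrf2 in 7 of 9 mice, and *Cldn19* little, with 1.90% and 1.60%. Since shares add up to a whole, they are not independent of each other.

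The ratio of *Cldn10* to *Cldn2* per length had a median of 0.0792 in control eyes (0.00624 to 0.747) and of 0.916 with Best1-Nrf2 (0.319 to 10.6). *Cldn10* exceeded *Cldn2* in 0 of 9 control eyes and in 4 of 9 Best1-Nrf2 eyes, those of mice 4, 5, 6 and 8. Within mice the ratio rose by 1.496 (mouse 7) to 7.11 (mouse 8) on the log2 scale. This ratio combines the 2 changes above and adds no evidence for them.

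**Figure D2:**
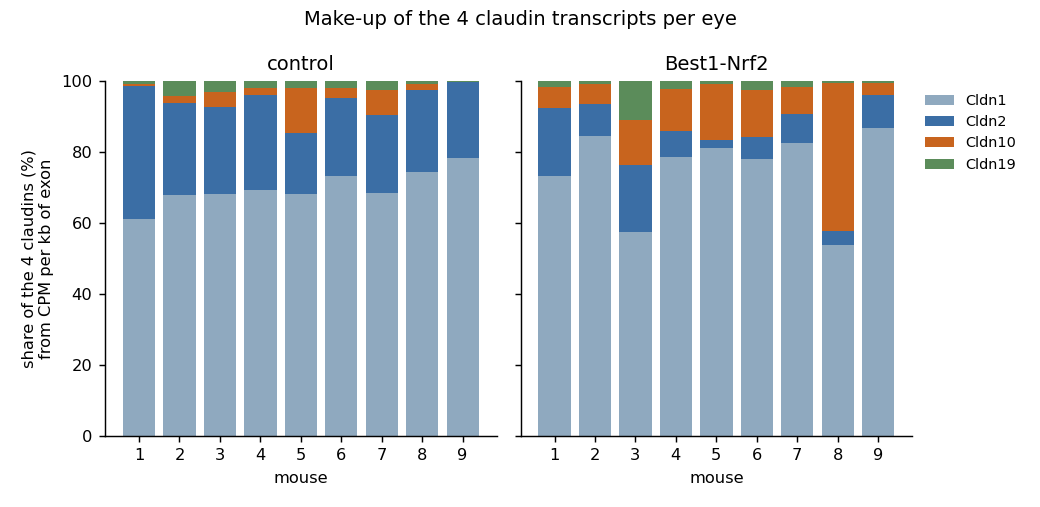
Share (%) of each of 4 claudins in their summed CPM per kb of exon, as stacked bars for the control eye (left) and the Best1-Nrf2 eye (right) of 9 mice. *Cldn2* (dark blue) had a median of 23.1% in control eyes and 8.27% with Best1-Nrf2, and *Cldn10* (orange) of 2.12% and 11.9%.

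The same shares were taken within all 22 claudin genes of the table. There *Cldn7* held a median of 33.3% in control eyes and 26.7% with Best1-Nrf2, *Cldn1* 19.8% and 26.4%, and *Cldn3* 17% and 15.7%. *Cldn2* held 7.59% and 3.62%, and *Cldn10* 0.651% and 3.32%. *Cldn3* and *Cldn7* are sealing claudins of many epithelia, and neither passed the test (log2 fold change -0.65 and -0.85, adjusted p = 0.731 and 0.725). The corneal and conjunctival markers above were found in the same libraries, and their part in these shares was not tested.

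The membrane and scaffold genes of the junction did not pass either. With the rod and cone covariate the log2 fold change was -1.59 for *Ocln*, 0.71 for *Tjp1* and -2.19 for *Cgn* (adjusted p = 0.248, 0.61 and 0.103). With the RPE covariate that of *Cgn* was -1.27 (adjusted p = 0.25). Values from the main model follow. *Ocln* (ENSMUSG00000021638; chromosome 13, 100496507 to 100552718, minus strand, 10 exons) codes for occludin, a membrane protein that helps to organise the strands. It was 8.97 to 57.5 CPM in control eyes (median 34.1 CPM) and 8.53 to 51.4 CPM with Best1-Nrf2 (median 30.3 CPM). The ranges were nearly the same (log2 fold change -0.08, SE 0.35, 95% interval -0.85 to 0.69, adjusted p = 0.97). *Tjp1* (ENSMUSG00000030516; chromosome 7, 65296165 to 65527781, minus strand, 31 exons) codes for ZO-1, the scaffold that binds claudins and occludin to actin. It was 24.7 to 93.0 CPM in control eyes (median 39.2 CPM) and 18.6 to 148 CPM with Best1-Nrf2 (median 40.6 CPM). The Best1-Nrf2 eyes spread wider on both sides (log2 fold change 0.12, SE 0.28, 95% interval -0.50 to 0.73, adjusted p = 0.941). *Cgn* (ENSMUSG00000068876; chromosome 3, 94760069 to 94786492, minus strand, 20 exons) codes for cingulin, a protein of the cytoplasmic side of the junction. It was 12.2 to 49.6 CPM in control eyes (median 29.2 CPM) and 8.56 to 49.5 CPM with Best1-Nrf2 (median 22.1 CPM). It was higher in 5 of 9 mice although its log2 fold change was -0.23 (SE 0.35, 95% interval -0.99 to 0.53, adjusted p = 0.89). Of the 31-base words of *Cgn*, 21.6% also occur in other genes, mostly in *BC021767*. That gene had at most 53 counts in any library, where *Cgn* had 295 to 2847. How far the shared words affect the level of *Cgn* was not tested.

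Neither apical gene passed the test, and the sign of both estimates turned with the rod and cone covariate (log2 fold change -0.081 for *Ezr* and -1.004 for *Crb2*), as did that of *Crb2* with the RPE covariate (-0.067). *Ezr* (ENSMUSG00000052397; chromosome 17, 6738041 to 6782784, minus strand, 13 exons) codes for ezrin, which links the membrane to actin and is needed for the long microvilli of the RPE. It was 394 to 1290 CPM in control eyes (median 649 CPM) and 442 to 1270 CPM with Best1-Nrf2 (median 1120 CPM). It was higher in 7 of 9 mice, and 6 Best1-Nrf2 eyes lay above the control median. Its log2 fold change was 0.43 (SE 0.23, 95% interval -0.06 to 0.93, adjusted p = 0.479). *Crb2* (ENSMUSG00000035403; chromosome 2, 37776249 to 37799103, plus strand, 14 exons) codes for Crumbs 2, a membrane protein that sets the apical domain in retina and RPE. It was 5.62 to 51.3 CPM in control eyes (median 8.89 CPM) and 4.11 to 63.4 CPM with Best1-Nrf2 (median 12.2 CPM). It was higher in 6 of 9 mice, and the highest control eye, that of mouse 1, stood apart from the other 8 (log2 fold change 0.56, SE 0.34, 95% interval -0.18 to 1.31, adjusted p = 0.58). Part of *Crb2* (113 exonic bases) overlaps *Dennd1a* on the opposite strand.

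**Figure D3:**
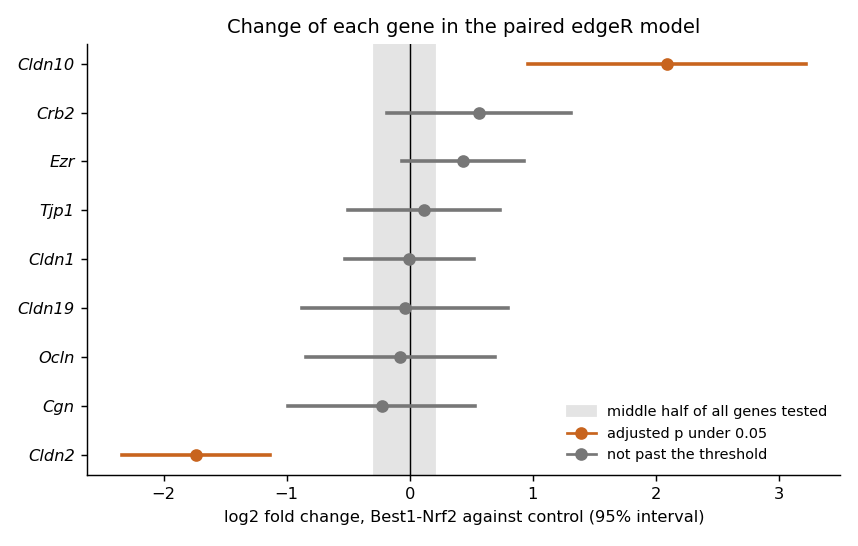
Log2 fold change of each gene, Best1-Nrf2 against control, as points with 95% intervals from the paired edgeR model, with genes past an adjusted p of 0.05 in orange. The grey band spans the quartiles of all 18958 genes tested (-0.29 to 0.21), and only the intervals of *Cldn2* and *Cldn10* lie wholly outside it.

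Per length of exon, the order of the 9 genes in control eyes was *Ezr* (median 197 CPM per kb), *Cldn1* (62.2), *Cldn2* (19.6), *Ocln* (8.08), *Tjp1* (5.02), *Cgn* (4.86), *Cldn10* (2.02), *Cldn19* (1.53) and *Crb2* (1.33). *Ezr*, *Cldn1* and *Cldn2* each stood above the next by more than 1 SD of the log2 ratio of the neighbours over the 9 eyes. From *Ocln* downwards, neighbours in the order did not differ beyond that spread. With Best1-Nrf2 the order was *Ezr* (340 CPM per kb), *Cldn1* (69.0), *Cldn2* (8.03), *Cldn10* (7.36), *Ocln* (7.18), *Tjp1* (5.20), *Cgn* (3.67), *Crb2* (1.82) and *Cldn19* (1.08). There *Ezr* and *Cldn1* stood above the next beyond the spread, whereas *Cldn2* and *Cldn10* did not differ beyond it, nor did any neighbours below them. The ratio of *Ezr* to *Cldn1* was nearly constant with Best1-Nrf2 (3.64 to 4.96, log2 SD 0.13) and less so in control eyes (1.89 to 7.67, log2 SD 0.53). This difference in spread was not tested.

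The genes varied among the 18 libraries in more than 1 pattern, as seen after the mean of each group was subtracted. *Cldn1* and *Ezr* went together (Pearson r = 0.91), as did *Cldn2* and *Crb2* (r = 0.82) and *Ocln* and *Cgn* (r = 0.69). The first 2 of these pairs were also linked with each other. There r was 0.79 for *Crb2* and *Ezr*, 0.74 for *Cldn1* and *Cldn2*, 0.69 for *Cldn2* and *Ezr*, and 0.69 for *Cldn1* and *Crb2*. *Tjp1* went against *Ezr* (r = -0.80) and *Cldn1* (r = -0.76). With the mean log2 level of the RPE markers (RPE marker score), r was 0.735 for *Cldn2*, 0.675 for *Cldn1* and 0.598 for *Cldn19*. For the other genes this r lay between -0.256 (*Tjp1*) and 0.457 (*Crb2*). These values describe libraries that share mice and depth differences, and they carry no test.

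Part of this variation followed a split of the libraries that the groups do not account for. The first principal component of the within-group variation, computed on 11800 genes without the 9, held 42% of the variance. It set 6 libraries (control eyes of mice 3, 5 and 8, Best1-Nrf2 eyes of mice 3, 6 and 8) at 26.4 to 89.5, and the other 12 at -60.8 to 4.84. In the 6, *Ezr* was 394 to 545 CPM against 571 to 1290 CPM in the 12, *Cldn1* 76.0 to 230 CPM against 286 to 890 CPM, and *Tjp1* 51.2 to 148 CPM against 18.6 to 43.7 CPM, with no overlap for any of the 3. The ranges of *Cldn2*, *Cldn10*, *Cldn19*, *Ocln*, *Cgn* and *Crb2* overlapped between the 6 and the 12. The share of all genes without such overlap was not counted. The share of mitochondrial counts was 2.79% to 7.38% in the 6 and 1.54% to 3.17% in the 12. The labels mention separate sequencing runs without saying which library was in which. The component was centred within each group, so as a covariate it can take up little of a difference between the groups and changes mainly the error. In the count model estimates still moved slightly, such as that of *Ocln* from -0.076 to -0.119. With this covariate the values were -1.74 for *Cldn2* (adjusted p = 0.0023) and 2.09 for *Cldn10* (adjusted p = 0.04), in a model that called 6.25% of all genes. Without mice 5 and 6, whose eyes lie on opposite sides, the values were -1.43 (adjusted p = 0.0096) and 2.53 (adjusted p = 0.039), with 3.76% of all genes called.

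**Figure D4:**
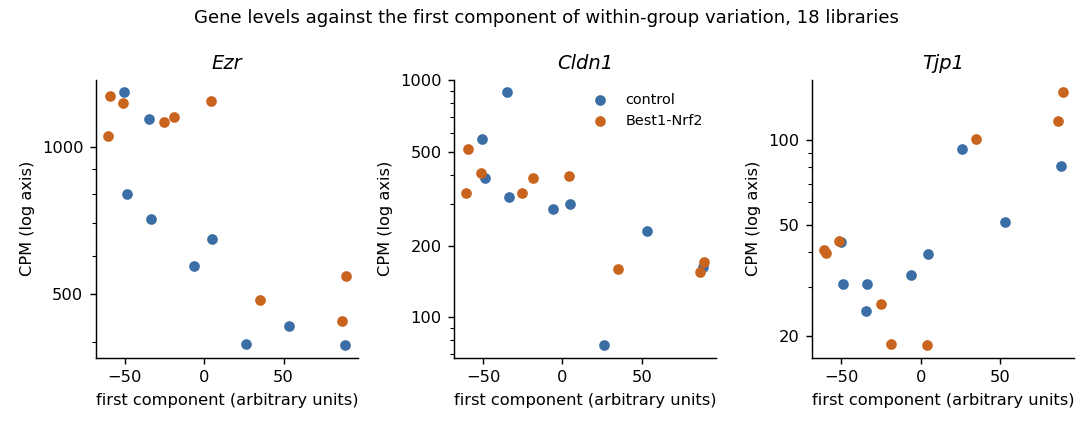
Level in CPM (log axes) of *Ezr*, *Cldn1* and *Tjp1* against the first component of within-group variation (arbitrary units) in 9 control (blue) and 9 Best1-Nrf2 (orange) libraries. The 6 libraries above 20 on the component hold the lowest *Ezr* and *Cldn1* and the highest *Tjp1* of both groups.

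The genes whose pattern over the 18 libraries was most like that of each of the 9 were named by the same correlation, among 11809 genes. For *Cldn2* they were *Frmpd4* (r = 0.93), *Fbn1* (0.92) and *Nedd9* (0.91). For *Cldn10* they were *Ppic* (0.84), *Rnaset2b* (0.80) and *Car3* (0.79), and no gene exceeded 0.9. *Cldn1* was most like *Mlycd* (0.98), *Daglb* (0.97) and *Wrnip1* (0.97), and *Ezr* was most like *Ntn4*, *Adam9* and *Clptm1* (0.98 each), where 349 and 648 genes exceeded 0.9. *Crb2* had *Fzd7*, *Hipk2* and *Arfgef2* (0.97 each), *Ocln* had *Actr3*, *G3bp1* and *Slc35f5* (0.97 each), and *Tjp1* had *Hnrnpul2* (0.95), *Stk11* (0.93) and *Zc3h7b* (0.93). *Cgn* had *Dnm2* (0.94), *Pard3* (0.92), a polarity protein of the same junction, and *Fzd6* (0.91). *Cldn19* had *Vcan*, *Rhoj* (0.91 each) and *Zfp105* (0.88). Genes above 0.9 numbered 319 for *Crb2*, 195 for *Ocln*, 12 for *Cldn2*, 10 for *Tjp1*, 3 for *Cgn* and 2 for *Cldn19*.

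How the difference between the eyes of a mouse varied was set against 3 other differences, in 27 relations over the 9 mice. None of the relations to *Nfe2l2* passed, and none of those to the RPE marker score did. Among these relations to *Nfe2l2* and the RPE score, the smallest unadjusted p values by Pearson r were 0.0637 for *Cgn* against the RPE score (r = -0.64, exact permutation test, 2-sided, adjusted p = 0.518) and 0.0768 for *Cldn10* against *Nfe2l2* (r = -0.63, exact permutation test, adjusted p = 0.518). Without mice 4 and 8, the 2 farthest from the median *Nfe2l2* difference, r for *Cldn10* was -0.25 (exact permutation p = 0.585, adjusted p = 0.808). For *Cldn2*, r was -0.08 against *Nfe2l2* (exact permutation p = 0.84, adjusted p = 0.872). Against the RPE score r for *Cldn2* was 0.38 (exact permutation p = 0.317, adjusted p = 0.66). Over the 18 libraries, after group means were removed, that r was 0.735, which was not tested. Among the same relations, *Ezr* against *Nfe2l2* had the smallest p by Spearman (rho = 0.65, exact permutation p = 0.0666, adjusted p = 0.599; r = 0.51, exact permutation p = 0.161), and without mice 4 and 8 its r was 0.79 (exact permutation p = 0.0369, adjusted p = 0.455).

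*Ocln* and *Cgn* followed the corneal and conjunctival marker score, a relation examined after the data were seen. For *Ocln*, Pearson r was 0.91 (exact permutation p = 0.00146, adjusted p = 0.0297) and Spearman rho 0.78 (exact permutation p = 0.0172, adjusted p = 0.344). For *Cgn*, r was 0.90 (exact permutation p = 0.0022, adjusted p = 0.0297) and rho 0.75 (exact permutation p = 0.0255, adjusted p = 0.344). Without mice 4 and 6, the 2 farthest from the median of the score, r was 0.58 (exact permutation p = 0.172) and 0.57 (exact permutation p = 0.193). Both relations were thus weaker without those mice and did not pass (adjusted p = 0.579 each). With the score as a covariate, the log2 fold change was 0.33 for *Ocln* and 0.18 for *Cgn* (adjusted p = 0.405 and 0.698), -1.65 for *Cldn2* (adjusted p = 0.0057) and 2.34 for *Cldn10* (adjusted p = 0.027), in a model that called 5.52% of all genes. *Ocln* and *Cgn* also followed the first component over the 18 libraries after group means were removed (r = -0.839 and -0.66). With the corneal score, r over the same libraries was 0.794 and 0.624. Neither was tested.

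**Figure D5:**
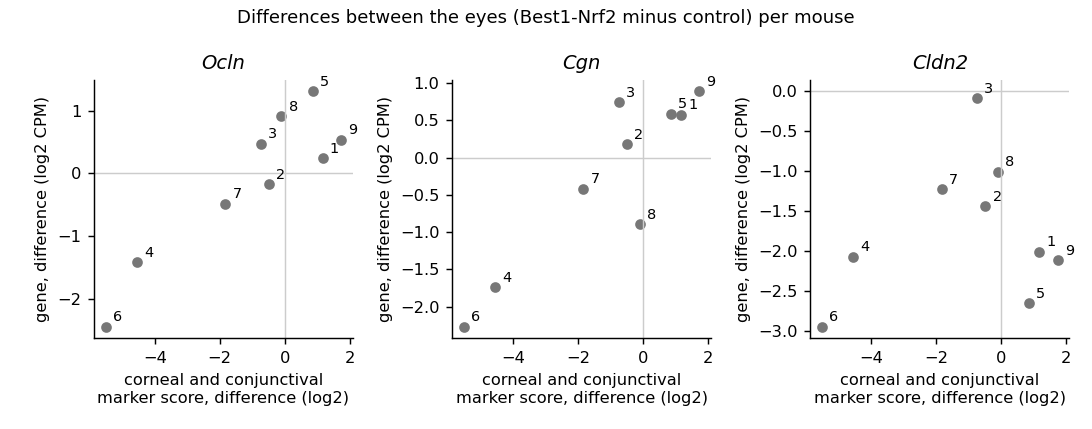
Difference between the eyes (Best1-Nrf2 minus control, log2 CPM) of *Ocln*, *Cgn* and *Cldn2* against that of the mean log2 level of 10 corneal and conjunctival markers, with 1 numbered point per mouse. Mice 4 and 6 are lowest on both axes for *Ocln* and *Cgn* (r = 0.91 and 0.90), while *Cldn2* was lower in all 9 mice at any score (r = 0.23).

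Most other genes of the junction and the apical surface did not pass. Of 90 further gene names listed in 5 groups, a few of them second names of the same gene, 76 genes were tested. Of these 76, 3 passed (3.95%, beside 4.25% of all genes tested), all of them higher with Best1-Nrf2. DESeq2 called 5 and limma voom 5 of these genes, among them *Espn* (DESeq2; edgeR log2 fold change -1.53, adjusted p = 0.288, lower in 8 of 9 mice) and *Cldn22* (limma voom; -0.79, adjusted p = 0.207, lower in 7 of 9 mice). Of 9 other claudins tested, *Cldn11* rose (median of the list -0.34), and *Cldn13* and *Cldn24* were listed with 0 counts in all libraries. Claudin-11 is known from myelin and from the barrier of the testis. *Cldn11* was 1.29 ± 1.79 CPM in control eyes, with 0 counts in 1 of them, and 7.08 ± 3.20 CPM with Best1-Nrf2 (SD, n = 9 each). It rose by 3.35 on the log2 scale (SE 0.71, adjusted p = 0.0179), in 9 of 9 mice. The call was lost without the pairing of eyes (2.46, adjusted p = 0.0574), without mouse 5 or 7 (adjusted p = 0.0571 and 0.0563), without mice 5 and 6 (3.41, adjusted p = 0.0574) and with the rod and cone, RPE or macrophage covariate (3.13, 3.00 and 4.56). It is also the 1 myelin marker that rose, and the median of that list was -0.52.

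In edgeR, none of 19 other membrane and scaffold proteins of the tight junction passed (median log2 fold change -0.27), nor did any of 19 polarity proteins (-0.07) or of 13 adherens junction proteins (0.13). At an unadjusted p under 0.05, which 12.8% of all genes tested met, these lists held 3, 3 and 0 genes. DESeq2 and limma voom each called 1 of the polarity proteins, *Patj*, which ties Crumbs to the junction (edgeR log2 fold change 0.67, SE 0.18, adjusted p = 0.06), and none of the other 2 lists. Of 16 partners of ezrin and microvillus proteins (-0.06), *Stk10* and *Epb41l3* rose. *Stk10* codes for a kinase that phosphorylates ezrin and its relatives. It was 3.42 ± 3.94 CPM in control eyes and 20.1 ± 17.3 CPM with Best1-Nrf2 (log2 fold change 2.44, SE 0.46, adjusted p = 0.00815). *Epb41l3* codes for a membrane-skeleton protein of the band 4.1 family, which shares a domain with ezrin. It was 17.01 ± 7.34 CPM in control eyes and 35.6 ± 14.1 CPM with Best1-Nrf2 (log2 fold change 1.08, SE 0.23, adjusted p = 0.0191). Both were higher in 9 of 9 mice, and neither call held with the rod and cone, RPE or macrophage covariate. With these covariates the log2 fold change of *Epb41l3* stayed about as large (1.12, 0.95 and 1.34), and that of *Stk10* was 0.73, 1.39 and 2.36. The call of *Epb41l3* was also lost without mouse 7 (1.07, adjusted p = 0.0567) and without mice 5 and 6 (0.91, adjusted p = 0.0618).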

How the data were processed

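RNA from the eyecup of *rd1* mice, collected after removal of the retina, was amplified from poly(A) RNA with an ultra-low-input kit and sequenced, with no molecular identifiers described, so PCR reads were not independent molecules. The authors used STAR for alignment to mm10 with Ensembl annotation and featureCounts for gene counts, and in parallel estimated transcripts with Salmon (0.8.1 per the submitters' processing notes), which they used in DESeq2. The deposited table holds expected counts per gene as whole numbers, unscaled. That unit was inferred from the values, and which counter made the table is not stated. The table holds 9 pairs of eyes.

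Replicate numbers are the labels' individuals, so the eyes of a mouse were paired by animal. Their correlation, after group means were removed, had a median of -0.000949 (-0.373 to 0.644). No 2 libraries of a group agreed within sampling noise (72 pairs, chi-square per degree of freedom at least 50.8). Symbols were found for 47224 of 47729 gene IDs. Positions are from GENCODE on GRCm38, and promoters from RefSeq GRCm38.p6. Genes were kept by filterByExpr, which held 99.87% of counts, scaled by TMM and tested in edgeR 4.0.16 (R 4.3.3; quasi-likelihood F test) with mouse as a block. P values were adjusted by Benjamini-Hochberg over all 18958 genes, with a threshold of 0.05. SE and 95% intervals came from the F statistic and reflect the spread between mice, and log2 CPM used a prior count of 2. Levels compared between genes were divided by the summed length of exons.

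Alternatives were no replicate block, RLE and upper-quartile scaling, DESeq2 1.42.0, limma voom 3.58.1 with sample weights, no filter, at least 10 counts in every library, covariates for 3 marker lists, and leaving out each mouse. Chosen after the data were seen were covariates for the first principal component and the corneal and conjunctival list, and leaving out mice 5 and 6. Methods were tested on simulated data. The 9 genes, the 5 other pathway lists and the 12 marker lists were chosen with earlier results of these data known. Named are the 9 genes, *Nfe2l2*, genes of the other pathway lists past the threshold, and the 3 genes most like each of the 9 (mean log2 CPM at least 2). *Rpe65*, *Best1*, *Slc16a8*, *Kcnj13*, *Csf1r*, *Rlbp1*, *Vim*, *Crym*, *Krt12*, *Patj*, *Espn*, *Cldn22*, *Cldn3* and *Cldn7*, and genes that share reads with the 9, were named after their values were seen.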

Additional observations from a re-analysis of the deposited data

Results flagged for a closer look

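*Crb2* in the control eye of mouse 1 lay far from the other control eyes. Its level there was 5.68 on the log2 CPM scale, and the next highest control eye was at 4.05, a gap of 0.513 of the range of the group against a limit of 0.493 for 9 samples (Dixon's test). The levels of the 9 genes were screened in both groups, 18 groups in all, and chance flags about 1 in 20 such groups. The Best1-Nrf2 eye of the same mouse was at 5.67.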

How the results depend on the processing

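*Cldn2* was lower in every alternative and lost its call with covariates for rod and cone (-2.20), RPE (-1.27) and macrophage markers (-2.56). Without each mouse in turn it was -1.90 to -1.59 and kept the call. *Cldn10* was higher in every alternative. It lost its call without the replicate block (1.77) and with the same covariates (1.51, 3.14 and 0.94), and was 1.74 to 2.34 without each mouse, and 5 of these 9 fits did not pass. The block changed the call of no other of the 9 genes, and of the other pathway genes named it changed that of *Cldn11* (2.46 without it, adjusted p = 0.0574). RLE and upper-quartile scaling, DESeq2, limma voom, no filter and the stricter filter changed no call of the 9. The count of the 9 genes called was 1 without the block, 0 with each of these 3 covariates, and 1 (without mouse 1, 2, 3, 4 or 9) to 2 without each mouse. These covariates move with the groups, and the causes of the lost calls were not tested.

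The 7 genes that did not pass had estimates whose sign depended on the setting in the cases given here. *Cldn1* was 0.025 with limma voom, 0.023 without a count filter, 0.48 with the RPE covariate, 0.054 with the corneal covariate and 0.069 without mice 5 and 6. *Cldn19* was 0.079 without the replicate block, 0.092 with voom, 0.58 with the RPE covariate, 0.036 with the corneal covariate and 0.18 without mice 5 and 6. *Ocln* was 0.33 with the corneal covariate and 0.022 without mice 5 and 6, *Tjp1* was -0.028 with voom and -0.014 with the macrophage covariate, and *Cgn* was 0.18 with the corneal covariate. *Crb2* was -1.004 with the rod and cone covariate and -0.067 with the RPE covariate, and *Ezr* was -0.081 with the rod and cone covariate. Moves that kept the sign included those of *Cgn* (-2.19 with the rod and cone covariate, adjusted p = 0.103, -1.27 with the RPE covariate, adjusted p = 0.25, and -0.74 with the macrophage covariate, adjusted p = 1.0), *Cldn1* (-0.56) and *Cldn19* (-0.43) with the macrophage covariate, *Tjp1* (0.71 with the rod and cone covariate) and *Ocln* (-1.59 with the rod and cone covariate, adjusted p = 0.248, and -1.04 with the macrophage covariate, adjusted p = 1.0). Without each mouse in turn, *Cldn1* was -0.13 to 0.15, *Cldn19* -0.26 to 0.22, *Ocln* -0.26 to 0.19, *Tjp1* -0.10 to 0.26 and *Cgn* -0.38 to 0.011, while *Crb2* (0.31 to 0.77) and *Ezr* (0.32 to 0.58) kept their sign.

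Over all genes tested, the count past the threshold was 806, against 1478 with DESeq2 (940 higher, 538 lower), 1426 with voom (924 and 502), 36 with the rod and cone covariate (31 and 5), 226 with the RPE covariate (203 and 23) and 44 with the macrophage covariate (42 and 2). The count of lower genes was 214, and 344 with the first component and 373 with the corneal covariate. Without each mouse it was 540 (mouse 7) to 1046 (mouse 6) in all, 416 to 726 higher and 116 (mouse 1) to 320 (mouse 6) lower, with 124 to 130 lower without mouse 3, 5, 7 or 9. Of the other pathway genes, 3 passed, against 5 with DESeq2 and with voom, 0 with the rod and cone and with the macrophage covariate, 1 with the RPE covariate, 6 with the first component and with the corneal covariate, and 1 (without mouse 7) to 5 (without mouse 6) without each mouse.

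Of the relations over mice, those without the 2 mice farthest from the median changed sign against *Nfe2l2* for *Cldn1* (0.69), *Cldn2* (0.40), *Cldn19* (0.11) and *Ocln* (0.52). Against the RPE score they did so for *Cldn1* (-0.089) and *Cldn10* (-0.16), and against the corneal score for *Cldn1* (-0.60), *Cldn2* (-0.68), *Tjp1* (0.19), *Crb2* (-0.23) and *Ezr* (-0.45), while *Ocln* (0.58) and *Cgn* (0.57) lost their calls. Among the 9 genes, depth limits *Cldn10* (17 counts in its lowest library) and *Cldn19* (12) most.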
